A study of Mus musculus with 28 samples.

Results

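The Hox genes of the mouse were followed across mammary tumors, their lung metastases, normal mammary gland and normal lung. They were taken as every gene symbol made of Hoxa, Hoxb, Hoxc or Hoxd and a number in the array annotation, and where several probe sets measured a gene, the brightest on average across the 26 tissue arrays stood for it. This gave 33 of the 18193 genes that had a probe set with a single symbol, namely 9 Hoxa, 9 Hoxb, 7 Hoxc and 8 Hoxd genes. Hox genes without such a probe set were not analysed here. The 33 genes were grouped by the number in their names as anterior (1 to 3, 7 genes), central (4 to 8, 12 genes) and posterior (9 to 13, 14 genes).

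RNA of whole tissue was hybridized to Affymetrix arrays, and each value was a log2 signal, so that a difference of 1 was a 2-fold change. Primary tumors (PT, 11 arrays) came from female Balb/c athymic nude mice of 8 weeks and were labelled as taken on day 30. These mice had received 50000 cells of JygMC(A) per gland, by the methods in the fourth mammary gland of both sides. Lung metastases (LungMets, 9 arrays) came from the same model and were labelled as taken on day 50. In that model, by the methods, the primary tumors were removed by day 30, before the labelled day of the metastases. Normal mammary gland (NMG, 3 arrays) and normal lung (NL, 3 arrays) came from 3 healthy nude mice of 6 to 8 weeks without injected cells. JygMC(A), a line from a mouse mammary carcinoma that here carried a GFP and luciferase reporter, also gave 1 array grown as a monolayer and 1 array grown as 3D spheres. All tumors descended from this single line, and the athymic host lacked a functional thymus. The labels described injection under the skin into the gland, whereas the study's methods named the fat pad. For tissue frozen for microdissection, the methods gave 1 or 2 tumor fragments from each of 8 mice. The 3 normal mice and their age were stated there too, and for the array samples the methods referred to an earlier report. The labels did not name the mouse. Some arrays may thus have shared an animal, and the p-values below measured only the spread between arrays. An NMG and an NL array may likewise have come from the same mouse, and the main test of NL against NMG used no pairing.

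Hox genes encode homeodomain transcription factors that lie in 4 clusters. Within a cluster, genes with low numbers are switched on early and towards the head, and genes with high numbers later and towards the tail, a rule called colinearity. Adult connective tissue cells keep much of this positional pattern, so organs from different levels of the trunk differ in the Hox genes they express. Hoxa5 is required for normal lung development, the paralogs numbered 9 act together in the mammary gland, and the paralogs numbered 13 pattern the digits and the urogenital tract.

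The 250 bases upstream of the start of 4 genes on which the results turned are shown, with every CG dinucleotide in capitals, because CG density is a known feature of Hox promoters. They were taken from RefSeq on GRCm38.p6 and are written 5′ to 3′ on the gene's strand. Hoxd13 and Hoxa5 were higher in PT than in NMG, whereas Hoxd9 and Hoxd8 had their highest group means in NMG.
Hoxd13 (chr2:74667975-74668224, plus strand): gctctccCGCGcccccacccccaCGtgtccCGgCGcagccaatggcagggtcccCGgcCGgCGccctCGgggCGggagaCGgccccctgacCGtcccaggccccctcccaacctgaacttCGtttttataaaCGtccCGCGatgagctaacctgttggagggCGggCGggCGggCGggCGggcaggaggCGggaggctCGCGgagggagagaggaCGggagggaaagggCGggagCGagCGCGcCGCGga
Hoxd9 (chr2:74697513-74697762, plus strand): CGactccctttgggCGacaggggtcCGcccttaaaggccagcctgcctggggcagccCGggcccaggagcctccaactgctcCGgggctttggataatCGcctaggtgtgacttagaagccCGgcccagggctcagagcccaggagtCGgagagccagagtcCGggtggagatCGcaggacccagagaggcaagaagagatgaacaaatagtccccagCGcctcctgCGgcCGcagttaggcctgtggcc
Hoxd8 (chr2:74704365-74704614, plus strand): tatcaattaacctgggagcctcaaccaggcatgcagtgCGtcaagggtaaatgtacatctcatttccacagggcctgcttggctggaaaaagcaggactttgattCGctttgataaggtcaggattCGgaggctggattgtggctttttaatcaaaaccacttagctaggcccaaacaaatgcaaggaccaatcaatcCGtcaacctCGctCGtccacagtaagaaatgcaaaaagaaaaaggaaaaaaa
Hoxa5 (chr6:52204588-52204837, minus strand): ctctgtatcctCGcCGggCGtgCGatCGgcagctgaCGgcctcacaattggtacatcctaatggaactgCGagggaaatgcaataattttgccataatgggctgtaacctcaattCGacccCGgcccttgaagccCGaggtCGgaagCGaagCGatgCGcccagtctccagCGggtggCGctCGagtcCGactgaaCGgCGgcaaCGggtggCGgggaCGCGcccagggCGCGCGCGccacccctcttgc

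The Hoxd13 sequence held 31 CG dinucleotides, a number reached by 5.2% of all 32851 promoters in the table. The Hoxa5 sequence held 28, reached by 7.6%. Hoxd9 held 13 and Hoxd8 held 6, which 31.5% and 50.4% of all promoters reached. In total 19 of the 33 Hox genes matched an entry, with 21 promoters, most of them of the Hoxa and Hoxd clusters. Hoxc8, Hoxc10 and Hoxb5 had no entry, so the sequences above came only from genes that had one. The median of the 21 promoters was 13 CG dinucleotides (range 2 to 35) against 6 over all promoters. The TATA motif TATAAA, searched on both strands, was present in 2 of the 21 Hox promoters, those of Hoxd13 and of 1 of the 2 Hoxa10 starts, and in 12.4% of all promoters. The CCAAT motif, searched on both strands, was present in 11 of the 21, among them Hoxd13, Hoxd8 and Hoxa5, and in 33.8% of all. CG itself was present in 21 of 21 and in 92.1% of all.

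Most Hox probe sets gave low signals. The medians of the arrays lay between 5 and 5.185, and the highest signal of 3 Y-linked genes on the tissue arrays, which came from female hosts, was 3.74. A group mean over the highest array median was found for 15 of the 33 genes in at least 1 tissue, and for 18 in none. Hoxb1, Hoxd1, Hoxd3 and Hoxd11 stayed below the highest Y-linked signal on every tissue array. A signal cannot be compared between probe sets as an amount of RNA, so genes were compared across tissues only. In NMG, 13 of the 33 means lay over the highest array median, in PT 9, in LungMets 9 and in NL 6, whereas 62.8%, 61.6%, 63.3% and 62.5% of all genes did. By cluster, 5 of 7 Hoxc genes passed in NMG and 0 of 7 in NL. The monolayer had 10 and the spheres 12 Hox genes over that level, for which the share of all genes is not given.

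**Figure D1:**
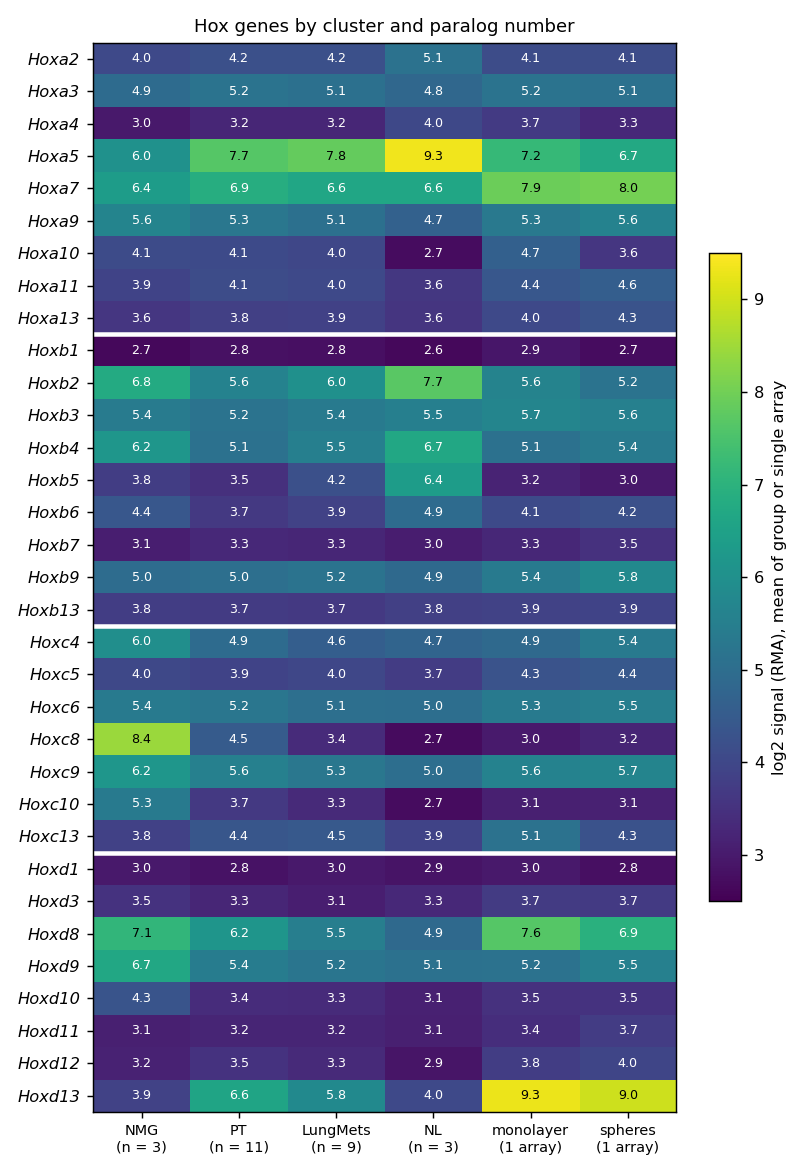
Mean log2 signal of the 33 Hox genes (rows, by cluster and paralog number, clusters separated by white lines) in NMG, PT, LungMets and NL and the single values of the monolayer and sphere arrays (columns). Rows are to be read across, as signals of different probe sets are not comparable; Hoxc8 fell from 8.45 in NMG to 2.71 in NL, and Hoxd13 was 9.28 and 8.97 in the cell line.

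The labelled tissues carried their markers, with 2 exceptions among the tumors. The mean of 7 lung epithelial genes was 12.35 to 12.43 in NL and 5.24 to 8.08 in NMG. The 8.08 was that of NMG replicate 1, whereas NMG replicates 2 and 3 had 5.93 and 5.24. The mean of 4 adipocyte genes was 11.22 to 11.88 in NMG and 6.80 to 8.07 in NL. LungMets held lung genes too, at 10.56 to 11.48 on 8 of the 9 arrays. PT replicate 5 had a lung epithelial mean of 10.77, against 4.96 to 7.74 on the other PT arrays, with the 7.74 on PT replicate 7. LungMets replicate 9 had 6.99, which was lower than on NMG replicate 1 and PT replicate 7. Over all genes PT replicate 5 correlated better with LungMets (0.989) than with PT (0.968), and LungMets replicate 9 better with PT (0.983) than with LungMets (0.963). An exchange of the labels of these arrays is possible and was not tested. Both kept their labels, and results that rest on them are given with and without them. The labels dated the arrays in 4 groups, and NMG and NL each had a date of their own, so that for every comparison with normal tissue the date and the tissue cannot be told apart. PT and LungMets shared 2 dates, date batch 1 with 4 arrays each and date batch 2 with 7 PT and 5 LungMets arrays.

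Normal lung and normal mammary gland differed in Hox genes of all 4 clusters. In NL against NMG, 16 of the 33 Hox genes passed limma's test at an adjusted p under 0.05, 7 higher in NL and 9 lower, where 28.9% of all genes passed (14.3% higher, 14.5% lower). All 4 Hoxb genes that passed were higher in NL, and all 4 Hoxc and 3 Hoxd genes that passed were lower. By position, 2 anterior genes were higher and 0 lower, 5 central genes were higher and 3 lower, and 0 posterior genes were higher and 6 lower. The median difference over the 33 genes was -0.06, close to the -0.01 of all genes. The arrays of NL and NMG did not overlap for 20 of the 33 Hox genes, a property shared by 47.5% of all genes with 3 arrays a group.

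**Figure D2:**
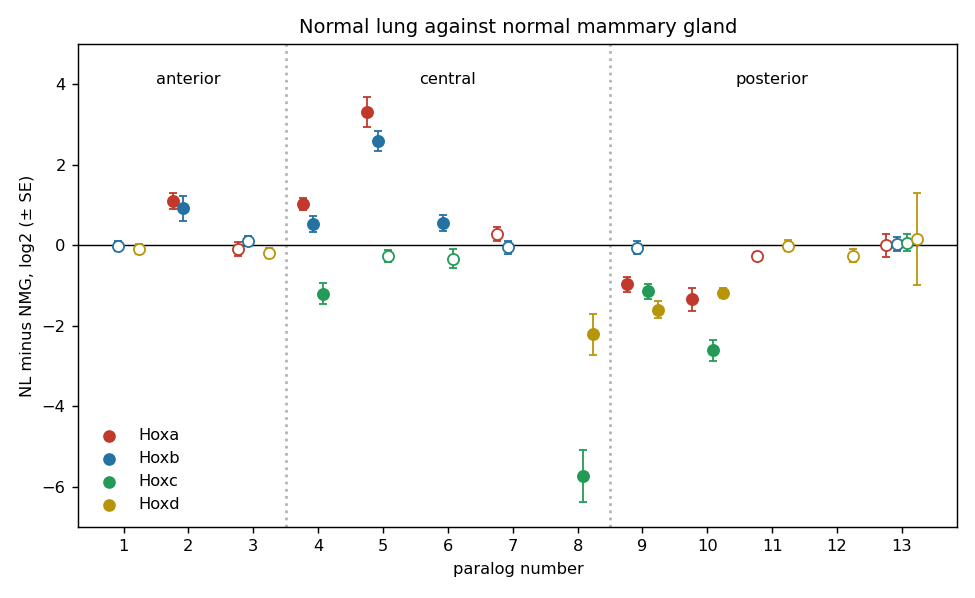
Difference between NL and NMG (log2, ± SE) for each of the 33 Hox genes against its paralog number, coloured by cluster; filled points had an adjusted p under 0.05 and dotted lines separate the position classes. Called genes with numbers 9 and 10 lie below 0, and Hoxa5 (3.31) and Hoxb5 (2.59) lie highest.

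The genes higher in lung were led by Hoxa5 and Hoxb5, whereas their paralog Hoxc5 was not higher (-0.27, not passed). Hoxa5 had 9.39, 9.34 and 9.30 on the NL arrays and 6.01, 5.71 and 6.38 on the NMG arrays. The difference was 3.31 ± 0.37 (SE), a 9.89-fold change (adjusted p = 1.81e-07). Hoxb5, which also acts in lung branching, had 6.14, 6.30 and 6.65 in NL and 3.88, 3.64 and 3.80 in NMG. Every NL array thus lay over every NMG array for both genes, and Hoxb5 differed by 2.59 ± 0.25 (adjusted p = 2.05e-08). Hoxb2 reached 8.07, 7.33 and 7.72 in NL against 6.72, 6.85 and 6.80 in NMG (difference 0.91 ± 0.31, adjusted p = 0.0259). Hoxa2, a gene of the branchial arches, had a mean of 5.14 ± 0.22 (SD, n = 3) in NL and 4.04 ± 0.11 (SD, n = 3) in NMG. Hoxa4 had 4.01 ± 0.11 in NL and 2.99 ± 0.06 in NMG (SD, n = 3 each), so that both rose by about 1 on the log2 scale (1.10 and 1.02). Hoxb4 had 6.87, 6.42 and 6.79 in NL and 6.25, 5.98 and 6.29 in NMG, and Hoxb6 had means of 4.94 ± 0.21 and 4.399 ± 0.25 (SD, n = 3 each). These were the smallest called differences, 0.52 (adjusted p = 0.0481) and 0.55 (adjusted p = 0.0411). The calls of Hoxb2, Hoxb4 and Hoxb6 were lost on leaving out single NMG or NL arrays. The fewest calls were 13, without NMG replicate 2 (4166 of the 18193 genes passed) or without NL replicate 3 (4352).

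Among the genes higher in mammary gland was Hoxc8, a gene of the thoracic level. Hoxc8 had 8.47, 8.12 and 8.76 in NMG and 2.81, 2.56 and 2.77 in NL. The NL values lay within the range of the Y-linked genes (2.47 to 3.74), and the measured difference was -5.74 ± 0.63 (adjusted p = 1.35e-07). Where a group lay in that range, as NL also did for Hoxc10, Hoxa10 and Hoxd10, a difference gives only a lower limit of its size. Hoxc10 of the same cluster had 5.12, 5.03 and 5.88 in NMG against 2.68, 2.80 and 2.71 in NL (difference -2.61 ± 0.27, adjusted p = 4.15e-08). Hoxc9 followed with means of 6.18 ± 0.20 and 5.03 ± 0.08 (SD, n = 3 each). Hoxc4, at the other end of the cluster, had 5.82, 5.84 and 6.22 in NMG and 4.54, 4.78 and 4.92 in NL. Thus 4 of the 7 Hoxc genes fell, by 1.15 to 5.74, without overlap between the arrays. In the Hoxd cluster, Hoxd8 had 7.15, 6.87 and 7.32 in NMG and 4.75, 4.83 and 5.10 in NL (difference -2.22 ± 0.52, adjusted p = 0.0017). Hoxd9 had 6.82, 6.58 and 6.72 in NMG and 5.47, 4.93 and 4.91 in NL (difference -1.61 ± 0.21, adjusted p = 1.29e-06). Hoxd10 had 4.21, 4.36 and 4.41 in NMG and 3.14, 3.07 and 3.21 in NL (difference -1.19 ± 0.11, adjusted p = 1.59e-08). These 3 genes were neighbours in the cluster, and Hoxd11 next to them did not pass. In the Hoxa cluster the direction changed along the numbers, since Hoxa9 (-0.97 ± 0.19) and Hoxa10 (-1.35 ± 0.29) were lower in NL while Hoxa2, Hoxa4 and Hoxa5 were higher. Hoxa10, a gene of the uterus and hind limb, had 3.93, 4.01 and 4.34 in NMG and 2.69, 2.76 and 2.77 in NL. Its second probe set gave -0.09 ± 0.15 (adjusted p = 0.752), so that this call depended on the probe set.

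Cell types differed along with these genes. The mean of 6 lung mesenchymal genes was 9.79 to 10.25 in NL and 4.95 to 5.31 in NMG, and that of 6 fibroblast genes was 9.46 to 9.85 in NL and 10.98 to 11.19 in NMG. Luminal mammary genes had a mean of 8.52 to 10 in NMG and 6.50 to 6.75 in NL. Endothelial genes had 7.48 to 7.81 in NMG and 10.24 to 10.33 in NL (6 of 6 higher), B lymphocyte genes 10.03 to 10.23 and 6.87 to 7.33 (2 of 3 lower), and basal mammary genes 6.99 to 7.82 and 5.59 to 6.21 (4 of 5 lower). The part of these cells in the Hox differences was not tested, and in bulk tissue fewer cells of a type and less RNA per cell cannot be told apart.

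Primary tumors were compared with normal mammary gland of healthy mice that had received no cells. In PT against NMG, 17 of the 33 Hox genes passed limma's test, 6 higher and 11 lower in PT, where 47.7% of all genes passed (26.7% higher, 21.0% lower). The median over the Hox genes was -0.11 and that over all genes 0.09. The lower genes were Hoxc8, Hoxc10, Hoxd9, Hoxb2, Hoxb4, Hoxc4, Hoxd10, Hoxb6, Hoxc9, Hoxa9 and Hoxd3, and the higher ones were Hoxd13, Hoxa5, Hoxc13, Hoxa7, Hoxd12 and Hoxa11. Hoxb and Hoxc genes that passed were lower with the exception of Hoxc13. PT and NMG did not overlap for 10 Hox genes, against 34.3% of all genes. Without NMG replicate 1, 11 of the 33 Hox genes passed limma's test, where 7209 of the 18193 genes did.

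Hoxc8 had the largest reduction. In PT it ranged from 3.00 through a median of 4.66 to 5.97, under the 8.12 to 8.76 of NMG on 11 of 11 arrays. The difference was -3.93 ± 0.51 (adjusted p = 6.59e-07), and -3.80 (adjusted p = 1e-07) without PT replicate 5 and LungMets replicate 9. Hoxc10 ranged from 3.02 through 3.64 to 4.15 in PT, under every NMG array (difference -1.67 ± 0.21, adjusted p = 6.06e-07). Hoxd9, one of the paralogs that act in the gland, ranged from 5.05 through 5.47 to 6.16, also under every NMG array (difference -1.27 ± 0.16, adjusted p = 7.12e-07). Hoxd10 ranged from 3.27 through 3.39 to 3.56 (difference -0.94 ± 0.09, adjusted p = 9.15e-09). Hoxd8 spread from 4.92 through 6.50 to 7.01 and did not pass (difference -0.95, adjusted p = 0.0603). Hoxb2 ranged from 4.80 through 5.64 to 6.17 (difference -1.20 ± 0.25) and Hoxb4 from 4.64 through 5.14 to 5.52 (difference -1.07 ± 0.16), each below every NMG array. Hoxc4 ranged from 4.61 through 5.02 to 5.184 (difference -1.02 ± 0.21). The smaller reductions were those of Hoxb6 (-0.73), Hoxc9 (-0.62), Hoxa9 (-0.37) and Hoxd3 (-0.26). Hoxd3 lay below the highest Y-linked signal on every array, and its call was lost on leaving out any single NMG array (adjusted p = 0.0703 to 0.115). That of Hoxa9 was lost without NMG replicate 2 (0.112) or 3 (0.326). Of these, Hoxb6 was below NMG on 11 of 11 arrays, Hoxc9 on 10, Hoxd3 on 9 and Hoxa9 on 7.

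Hoxa5 rose on all PT arrays. It ranged from 6.58 through 7.78 to 8.51 in PT, over every NMG array, and rose by 1.63 ± 0.30, or 3.10-fold (adjusted p = 6.94e-05). The cell line that gave rise to the tumors had 7.19 in monolayer and 6.71 in spheres. Hoxd13 rose more on average but unevenly, from 3.49 through 7.14 to 8.34 in PT against 3.69 to 4.09 in NMG. On 10 of 11 arrays it lay over NMG and on 1 below (difference 2.70 ± 0.91, 6.51-fold, adjusted p = 0.017). That call, Hoxd13 in PT against NMG, was lost without NMG replicate 1 (adjusted p = 0.0548) or NMG replicate 2 (adjusted p = 0.0615). Hoxc13, which acts in hair and nail, was 4.37 ± 0.26 (SD, n = 11) in PT and 3.85 ± 0.07 (SD, n = 3) in NMG, and Hoxa7 was 6.87 ± 0.24 and 6.36 ± 0.29. Hoxd12 (0.36) and Hoxa11 (0.22) rose by less. Without NMG replicate 1 the calls of Hoxa7 (adjusted p = 0.0685), Hoxc13 (0.0543), Hoxd12 (0.138) and Hoxa11 (0.238) were lost, that of Hoxd12 also without NMG replicate 3 (0.0842) and that of Hoxa11 without NMG replicate 2 (0.094). Hoxa9 and Hoxa11 no longer passed without PT replicate 5 and LungMets replicate 9 (adjusted p = 0.0629 and 0.0542).

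**Figure D3:**
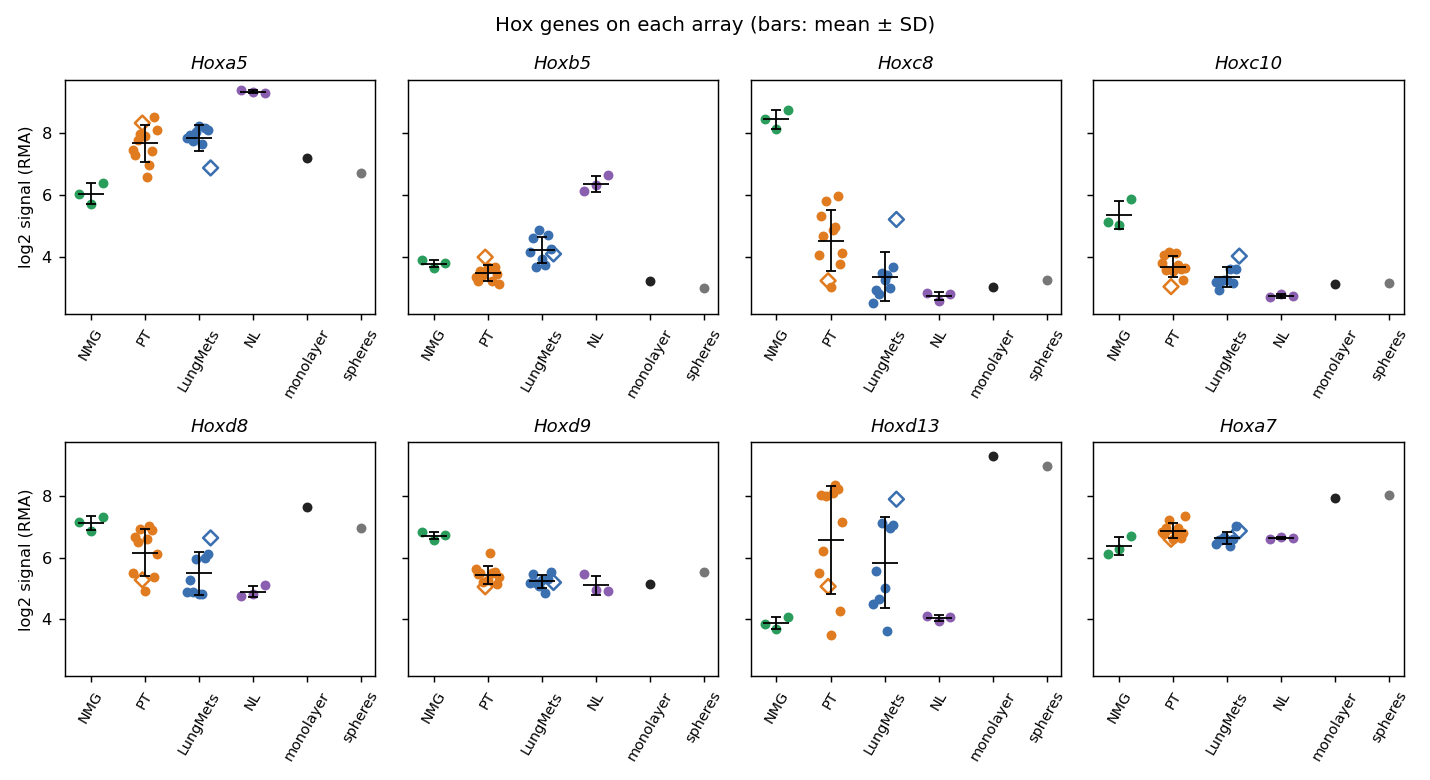
Log2 signal of 8 Hox genes on every array by group, with mean ± SD as bars (NMG n = 3, PT n = 11, LungMets n = 9, NL n = 3; monolayer and spheres 1 array each); open diamonds are PT replicate 5 and LungMets replicate 9. Hoxc8 is highest in NMG, Hoxa5 in NL, and Hoxd13 spreads from 3.49 to 8.34 in PT while NMG and NL reach at most 4.10.

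Markers of other cell types differed as well. Adipocyte genes had a mean of 4.54 to 7.12 in PT against 11.22 to 11.88 in NMG, and all 4 measured adipocyte genes were lower. Fibroblast genes had a mean of 8.59 to 10.41 in PT and luminal genes 5.87 to 8.67, against 10.98 to 11.19 and 8.52 to 10 in NMG, with 2 of 6 fibroblast and 4 of 6 luminal genes lower and 0 higher. B lymphocyte genes had a mean of 3.70 to 8.10 in PT against 10.03 to 10.23 in NMG (3 of 3 lower), basal mammary genes 5.74 to 7.42 against 6.99 to 7.82 (4 of 5 lower) and endothelial genes 4.79 to 7.66 against 7.48 to 7.81 (4 of 6 lower). In the cell line, Hoxc8 (3.00 and 3.23), Hoxc10 (3.10 and 3.13) and Hoxb5 (3.19 and 2.99) were within the range of the Y-linked genes. The part of cell makeup in the Hox differences was not tested.

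Lung metastases were compared with normal lung of healthy mice that had received no cells. In LungMets against NL, 13 of the 33 Hox genes passed, 6 higher and 7 lower, where 46.2% of all genes passed (23.8% higher, 22.4% lower). By position, 6 of 14 posterior genes were higher and 0 lower, 5 of 12 central genes were lower and 0 higher, and 2 of 7 anterior genes were lower and 0 higher, and the difference between the positions was not tested. The 7 lower genes were Hoxa2, Hoxa4, Hoxa5, Hoxb2, Hoxb4, Hoxb5 and Hoxb6, the same 7 that were higher in NL than in NMG. Both comparisons use the same NL arrays, so this is not a separate observation. The median was 0.16 over the Hox genes and 0.05 over all genes, and groups did not overlap for 11 Hox genes and for 34.1% of all genes. Hoxb5 ranged from 3.65 through 4.16 to 4.87 in LungMets, below the 6.14 to 6.65 of NL (difference -2.15 ± 0.21, adjusted p = 1.2e-08). Hoxb2 ranged from 5.26 through 5.98 to 6.72 (difference -1.70 ± 0.25, adjusted p = 5.7e-06). Hoxa5 ranged from 6.87 through 7.95 to 8.23, where the lowest value was that of LungMets replicate 9. It differed from NL by -1.49 ± 0.30 (adjusted p = 0.000269), and by -1.37 without PT replicate 5 and LungMets replicate 9. Hoxb4 (-1.19), Hoxb6 (-1.05), Hoxa2 (-0.92) and Hoxa4 (-0.76) were likewise below every NL array on 9 of 9 arrays.

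Among the higher genes was Hoxa10, with 3.58 through 3.85 to 5.03 in LungMets over the 2.69 to 2.77 of NL, which lay in the Y-linked range (measured difference 1.24 ± 0.24, adjusted p = 0.000138). Its second probe set again gave no call (0.20, adjusted p = 0.183). Hoxc10 (0.61), Hoxc13 (0.55), Hoxd12 (0.42), Hoxa11 (0.42) and Hoxa9 (0.41) rose by less, all from low signals in NL. The call of Hoxc10 in LungMets against NL was lost on leaving out any of the NL arrays (adjusted p = 0.0531 to 0.0773), that of Hoxa9 without NL replicate 2 or 3 (0.0678 and 0.178) and that of Hoxd12 without NL replicate 2 (0.18). Hoxd13 ranged from 3.63 through 5.58 to 7.89 against 3.94 to 4.10 in NL and did not pass (difference 1.79, adjusted p = 0.119). Lung mesenchymal genes had a mean of 4.81 to 8.65 in LungMets against 9.79 to 10.25 in NL, with all 6 lower, and 2 of 7 lung epithelial genes were lower. Endothelial genes had 6.53 to 8.99 against 10.24 to 10.33, with 6 of 6 lower. Whether less lung tissue on these arrays took part in the Hox differences was not tested.

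**Figure D4:**
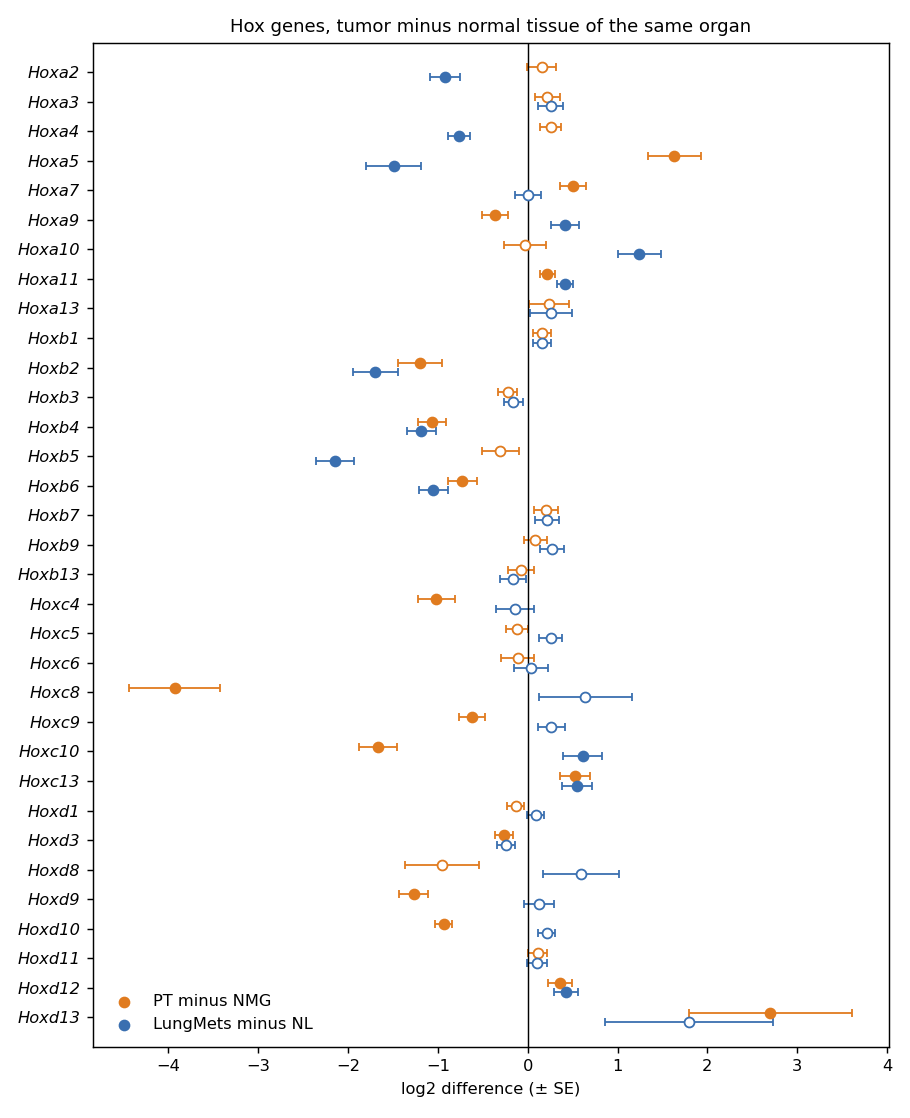
Log2 difference (± SE) of the 33 Hox genes between tumor and normal tissue of the same organ, PT minus NMG in orange and LungMets minus NL in blue; filled points had an adjusted p under 0.05. Hoxa5 lies at 1.63 against the gland and at -1.49 against the lung, and Hoxc8 at -3.93 and 0.64.

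Whether the difference between tumor and normal tissue varied with the site was tested as (PT minus NMG) minus (LungMets minus NL). In this test 12 of the 33 Hox genes passed where 19.8% of all genes did. The parts had opposite signs for Hoxa5 (1.63 in the gland and -1.49 in the lung) and were one-sided for Hoxb5 (-0.30 and -2.15). The contrast also equals (PT minus LungMets) plus (NL minus NMG), so it contains the difference between the normal tissues. For Hoxa5 the tumor means were 7.67 in PT and 7.85 in LungMets, and NL minus NMG was 3.31.

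LungMets were also compared with normal mammary gland. In LungMets against NMG, 14 Hox genes passed, 2 higher and 12 lower, where 41.0% of all genes passed (23.1% higher, 17.9% lower). This comparison shares its NMG arrays with PT against NMG and its LungMets arrays with LungMets against NL. Hoxc8 ranged from 2.49 through 3.25 to 5.20 in LungMets and differed from NMG by -5.10 ± 0.52 (adjusted p = 2.64e-08). Without PT replicate 5 and LungMets replicate 9, the array with the 5.20, the difference was -5.33. Hoxc10 (-2.002), Hoxd8 (-1.63), Hoxd9 (-1.48) and Hoxc4 (-1.36) followed. Hoxd8, which had not passed in PT, ranged from 4.81 through 5.26 to 6.64, below every NMG array (adjusted p = 0.00332). The other lower genes were Hoxd10 (-0.98), Hoxc9 (-0.89), Hoxb2 (-0.78), Hoxb4 (-0.66), Hoxa9 (-0.56), Hoxb6 (-0.51) and Hoxd3 (-0.44). Hoxa5 (1.81 ± 0.30, adjusted p = 4e-05) and Hoxc13 (0.61 ± 0.17) were higher on 9 of 9 arrays. Single NMG arrays decided 3 of these calls, as Hoxb2 was lost without NMG replicate 2 or 3 (adjusted p = 0.057 and 0.0536), and Hoxa9 (0.0734) and Hoxb6 (0.133) without NMG replicate 3. The median over the Hox genes was -0.01 and that over all genes 0.10, and groups did not overlap for 11 Hox genes, against 29.7% of all genes.

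The count of Hox genes that differed between metastases and primary tumors depended on the arrays and the scaling. In LungMets against PT, 3 of the 33 genes passed, 2 higher and 1 lower, where 15.2% of all genes passed (9.03% higher, 6.13% lower). With each array centred on its median the count was 6, with 2 higher and 4 lower (3084 of the 18193 genes passed), and after a further quantile normalization it was 6, with 1 higher and 5 lower (3024 of all genes). Hoxb5 rose by 0.75 ± 0.14 (adjusted p = 0.000735), Hoxb4 rose by 0.40 ± 0.11 (adjusted p = 0.0133) and Hoxc8 fell by 1.17 (SE 0.35, adjusted p = 0.0247). All 3 overlapped between the groups, with 6 of 9 LungMets arrays over every PT array for Hoxb5, 3 for Hoxb4, and 4 below for Hoxc8. Without PT replicate 5 and LungMets replicate 9 there were 10 calls, 3 higher and 7 lower, where 3670 of the 18193 genes passed, and the values were 0.82 for Hoxb5, 0.46 for Hoxb4 and -1.53 for Hoxc8. The added genes were Hoxb2 (0.50), Hoxd8 (-0.91), Hoxc10 (-0.48), Hoxc4 (-0.46), Hoxc6 (-0.34), Hoxa7 (-0.29) and Hoxd3 (-0.23). Leaving out LungMets replicate 9 alone gave 7 calls (3124 of all genes).

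The 2 label dates were then taken apart. With the date as a block Hoxb5 (adjusted p = 0.00386) and Hoxb4 (adjusted p = 0.0288) passed and Hoxc8 did not (adjusted p = 0.0586). In date batch 1 alone Hoxb5 (0.95), Hoxc8 (-2.04) and Hoxc10 (-0.76) passed. In date batch 2, which holds both arrays that stand apart, the values kept their direction (Hoxb5 0.61, Hoxb4 0.46, Hoxc8 -0.57) but 0 genes of the 18193 passed in limma, with 2669 at an unadjusted p under 0.05. Hoxb4 and Hoxb5 were also among the genes higher in NL than in NMG. Lung mesenchymal genes had a mean of 6.83 to 8.65 on 8 LungMets arrays against 4.25 to 4.94 on 10 PT arrays. The arrays left out crossed these ranges, LungMets replicate 9 with 4.81 and PT replicate 5 with 7.27. Hoxb5 did not follow this mean on every array. It was 4.08 on LungMets replicate 9, over every PT array, and 3.65 and 3.73 on LungMets replicates 3 and 6, within the PT range. The part of lung tissue in these differences was not tested.

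Values in all 4 tissues completed the picture for genes with smaller differences, given as means in PT, LungMets, NMG and NL. Hoxa2 had 4.20, 4.22, 4.04 and 5.14, and Hoxa4 had 3.24, 3.25, 2.99 and 4.01, so that both stood out in NL. Hoxa7 had 6.87, 6.64, 6.36 and 6.63 and was highest in PT. Hoxa9 had 5.28, 5.09, 5.65 and 4.68 by the chosen probe set, and Hoxc9 had 5.56, 5.29, 6.18 and 5.03, both highest in NMG and lowest in NL. Hoxa11 had 4.12, 4.05, 3.899 and 3.63, and Hoxc13 had 4.37, 4.46, 3.85 and 3.91, with the tumors above both normal tissues. Hoxd12 had 3.53, 3.33, 3.16 and 2.91, and Hoxd3 had 3.25, 3.08, 3.51 and 3.32, all under the highest Y-linked signal. Hoxb6 had 3.67, 3.89, 4.399 and 4.94, Hoxb3 had 5.178, 5.35, 5.40 and 5.51, and Hoxc6 had 5.24, 5.05, 5.35 and 5.02. Among the genes described by array, LungMets ranged from 2.90 through 3.22 to 4.01 for Hoxc10 and from 4.85 through 5.19 to 5.52 for Hoxd9. Hoxb4 ranged from 5.26 through 5.39 to 6.13 there, Hoxc4 from 3.61 through 4.67 to 5.30 and Hoxd10 from 3.12 through 3.38 to 3.59. In PT, Hoxb5 ranged from 3.12 through 3.43 to 3.98 and Hoxa10 from 3.60 through 3.97 to 4.77, both overlapping NMG.

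Hoxd13 had the largest SD of the 33 Hox genes among the tumors. Its SD was 1.76 over the 11 PT arrays and 1.48 over the 9 LungMets arrays, whereas in NMG and NL it was 0.20 and 0.09 (n = 3 each). In the cell line it had 9.28 in monolayer and 8.97 in spheres, higher than on any tissue array. Of the PT arrays, 3.49, 4.27, 5.06 and 5.50 were the lowest values, and 8.00, 8.03, 8.08, 8.22 and 8.34 the highest. The second Hoxd13 probe set also separated the cell line (6.03 and 6.19) from NMG (3.94 to 4.18) and NL (3.64 to 3.98), with 4.04 to 5.39 in PT and 4.07 to 4.78 in LungMets. There PT rose by 0.60 ± 0.18 over NMG (adjusted p = 0.00892) and LungMets by 0.66 ± 0.19 over NL (adjusted p = 0.00569), so that its size depended on the probe set and its direction did not.

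Hoxd8, in the same cluster, rose and fell with Hoxd13. Pearson's r between them was 0.951 over the 11 PT arrays (permutation p = 0.00012, adjusted over 8 relations 0.00048; Spearman's rho = 0.918, p = 0.0002, adjusted 0.0008). Over the 9 LungMets arrays r was 0.962 (exact permutation p = 0.00038, adjusted 0.00101; rho = 0.833, p = 0.00827, adjusted 0.00945). Without the 2 arrays farthest from the median of Hoxd13, r was 0.919 in PT and 0.981 in LungMets, and over the 7 PT arrays of date batch 2 it was 0.975. The relation thus held in both tumor groups, although Hoxd8 was higher in NMG than in LungMets and Hoxd13 was lower in NMG than in PT. Hoxc8, on another chromosome, followed Hoxd13 in PT (r = 0.886, permutation p = 0.00058, adjusted 0.00116; rho = 0.873, p = 0.00118, adjusted 0.00236). In PT, r was 0.840 without the 2 farthest arrays and 0.885 in date batch 2. In LungMets r was 0.628 (exact permutation p = 0.0414, adjusted 0.0414; rho = 0.683, p = 0.0503, adjusted 0.0503) and 0.751 without the 2 farthest, but it was 0.414 without LungMets replicate 9, so that it rested in part on that array.

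The same arrays differed in their cell markers. The mean of the fibroblast genes rose with Hoxd13 in PT (r = 0.897, permutation p = 0.0011, adjusted 0.00147; rho = 0.827, p = 0.00268, adjusted 0.00429) and in LungMets (r = 0.928, exact permutation p = 0.00097, adjusted 0.00147; rho = 0.867, p = 0.00451, adjusted 0.00601). That of the luminal mammary genes fell with it in PT (r = -0.888, permutation p = 0.00012, adjusted 0.00048; rho = -0.936, p = 6e-05, adjusted 0.00048) and in LungMets (r = -0.914, exact permutation p = 0.00194, adjusted 0.00222; rho = -0.933, p = 0.00075, adjusted 0.002). Without the 2 farthest arrays, r for the fibroblast genes was 0.914 and 0.901, and for the luminal genes -0.860 and -0.936, in PT and LungMets. In date batch 2 PT gave 0.894 and -0.893. The other date groups held 4 or 5 arrays, too few for a correlation. Without PT replicate 5 or LungMets replicate 9, r was 0.949 and 0.903 for the fibroblast genes and -0.880 and -0.936 for the luminal genes. The cell line had the highest Hoxd13 with a fibroblast mean of only 5.21 and 4.66 and a luminal mean of 4.73 and 5.12, both under every tissue array. These relations were chosen after the values of Hoxd13 were seen, and the adjustment over 8 relations does not cover that choice. Relations with the other Hox genes and marker lists are not given. The cause of these relations was not tested.

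**Figure D5:**
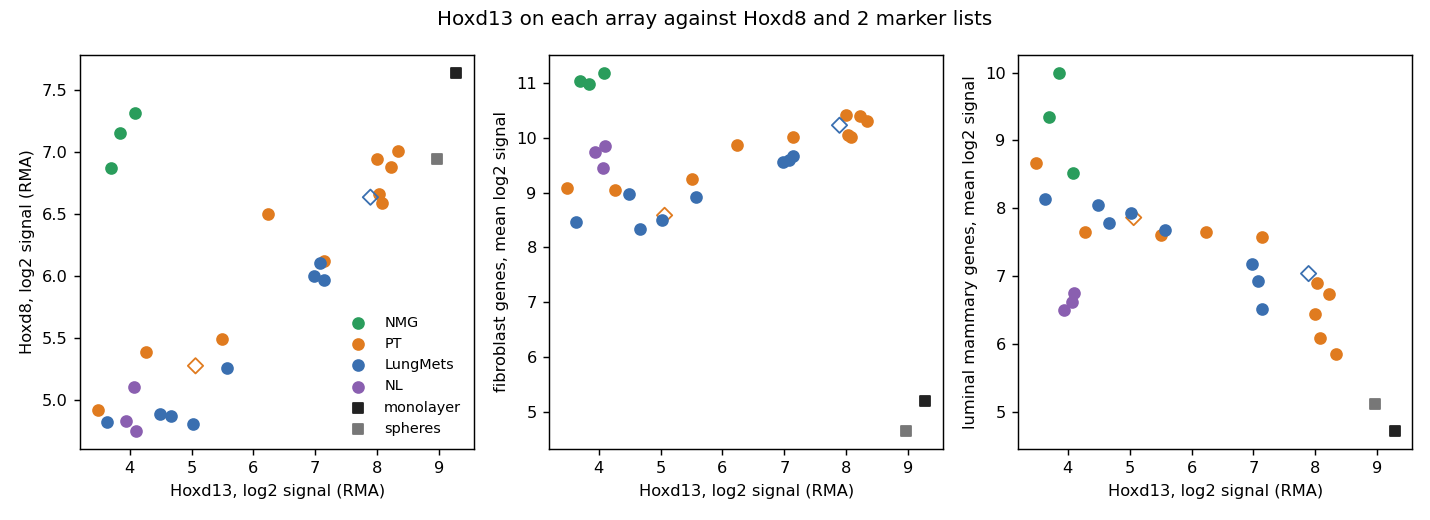
Hoxd13 (x axis, log2 signal) on each of the 28 arrays against Hoxd8, the mean of 6 fibroblast genes and the mean of 6 luminal mammary genes (y axes, log2 signal); open diamonds are PT replicate 5 and LungMets replicate 9, squares the cell line. Within PT and LungMets Hoxd8 and fibroblast genes rise with Hoxd13 and luminal genes fall, and the NMG arrays lie apart, with Hoxd8 at 6.87 to 7.32 and Hoxd13 at 3.69 to 4.09.

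The probe set chosen for a gene could hide a difference. Of the 33 genes 22 had 1 probe set and 11 had several, 48 probe sets in all, and each was also tested as a row of its own among 34945. By this count 24 of the 48 Hox probe sets passed in NL against NMG (24.8% of all probe sets did) and 26 in PT against NMG (46.1%). LungMets against NL gave 18 (44.1%), LungMets against NMG 22 (39.0%) and LungMets against PT 3 (14.4%). Hoxa9 differed most between its probe sets. The chosen one, with the higher mean, had 5.35 to 5.94 in NMG and 5.03 to 5.69 in PT, whereas the other had 7.57, 7.61 and 8.48 in NMG, 3.71 through 5.10 to 5.59 in PT, 3.92 through 4.28 to 5.23 in LungMets and 3.80 to 3.97 in NL. In the latter, NMG thus lay over every other tissue array, and the differences were -3.00 ± 0.30 for PT (adjusted p = 1.1e-08), -3.44 for LungMets (adjusted p = 2.38e-09) and -3.99 for NL (adjusted p = 9.27e-09) against NMG. The cell line had 4.22 and 3.95 there. Hoxb3, Hoxc5, Hoxc6 and Hoxa3, which passed in no comparison with the chosen probe set, passed with another one. Hoxc5 fell by 1.16 (adjusted p = 9.24e-05) in NL against NMG and by 0.99 in PT against NMG, Hoxb3 fell by 1.24 in PT against NMG (adjusted p = 0.000273), and Hoxa3 rose by 1.37 in NL against NMG (adjusted p = 0.000105). For Hoxc6, 2 further probe sets fell by 0.77 and 0.97 in NL against NMG. The genes that passed with the chosen probe set kept their direction in their other probe sets, whereas Hoxa3 did not, since its chosen probe set gave -0.10 in NL against NMG and 0.26 in LungMets against NL, where the other gave 1.37 and -0.92.

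Outside these probe sets 11 genes passed in none of the 5 comparisons, namely Hoxa3, Hoxa13, Hoxb1, Hoxb3, Hoxb7, Hoxb9, Hoxb13, Hoxc5, Hoxc6, Hoxd1 and Hoxd11. Their differences lay between -0.34 and 0.27, and the lowest adjusted p was 0.0781 (Hoxb3). On the tissue arrays Hoxb3 (4.70 to 5.71) and Hoxc6 (4.59 to 5.77) had a group mean over the highest array median. Hoxb9 ranged from 4.68 to 5.52, Hoxa3 from 4.70 to 5.54, Hoxa13 from 3.31 to 4.77, Hoxc5 from 3.62 to 4.46, Hoxb13 from 3.32 to 4.29 and Hoxb7 from 2.855 to 3.90 on the tissue arrays. Hoxb1, Hoxd1 and Hoxd11 stayed between 2.54 and 3.41.

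Genes that act with the Hox proteins or on their genes were taken from lists, to be read against all genes, of which 28.9% passed in NL against NMG, 47.7% in PT against NMG, 46.2% in LungMets against NL, 41.0% in LungMets against NMG and 15.2% from PT to LungMets. TALE proteins such as Meis1, Pbx3 and Pknox2 bind DNA together with Hox proteins, and 3 of the 8 measured passed in NL against NMG, all higher in lung, Pknox2 by 2.85, Meis1 by 2.52 and Pbx3 by 1.498. In LungMets against NL 5 of 8 fell, with Pknox2 at -2.70, Meis1 at -2.20, Meis2 at -0.84 and Pbx3 at -0.63. Against NMG, PT had higher Pbx3, which rose by 0.80 while Meis1 (-1.02) and Meis2 (-0.63) fell. Meis1 (1.34) and Meis2 (0.53) rose from PT to LungMets, and only Pbx3 passed between LungMets and NMG (0.86). Of 13 regional factors, 7 were higher and 2 lower in NL against NMG, the higher ones led by Tcf21 (7.23), Tbx4 (5.79), Foxf1 (4.95) and Tbx2 (4.74). In LungMets they were lower than in NL for 6 of 13, led by Tcf21 (-3.01), and higher for 1, Tbx15 (1.38). In LungMets against PT 6 were higher and 0 lower, led by Tcf21 (3.73), and in LungMets against NMG 5 were higher and 1 lower, Tbx18 (-1.70). In PT against NMG only Tbx3, a factor of mammary development, passed (-1.48).

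Retinoic acid switches on Hox genes in the embryo, and its enzymes differed strongly between tissues. Aldh1a1 was higher by 5.01 in NL than in NMG and by 4.93 in LungMets than in PT, and Aldh1a3 was higher by 2.14 in PT than in NMG, higher by 4.00 in LungMets than in NL and differed by -2.68 between NL and NMG. The receptor gene Rarb, itself a target of retinoic acid, rose by 2.28 in NL against NMG and fell by 1.87 in LungMets against NL. Of the 11 measured pathway genes 4 were higher and 1 lower in PT against NMG. From PT to LungMets 2 were higher and 3 lower, with 4 and 2 in LungMets against NL, 2 and 2 in LungMets against NMG, and 3 and 3 in NL against NMG. Polycomb proteins keep Hox genes silent, and of the 14 measured 6 were higher and 3 lower in PT against NMG, where 26.7% of all genes were higher and 21.0% lower. Among them Cbx2 rose by 1.23, Phc2 by 0.93 and the methyltransferase Ezh2 by 0.87, while Cbx7 (-1.12) and Jarid2 (-1.05) fell. The counts were 1 and 1 in LungMets against PT, 4 and 4 in LungMets against NL, where Ezh2 rose by 1.85, 6 and 3 in LungMets against NMG, and 2 and 4 in NL against NMG, where Ezh2 differed by -1.29. Of 7 Trithorax genes and H3K27 demethylases, which oppose Polycomb, 2 were higher and 2 lower in PT against NMG and 0 passed from PT to LungMets. The counts were 2 and 3 in LungMets against NL, 1 and 3 in LungMets against NMG and 1 and 0 in NL against NMG, with Kdm6b at -1.11 in LungMets against NL. Of the 8 ParaHox genes and cluster neighbours 3 were higher in PT against NMG, among them Cdx2 (0.53) and Evx2 (0.43), which lies beside Hoxd13, 2 were higher in each of the comparisons of LungMets with normal tissue, and 0 passed otherwise. These values stand beside the Hox genes as measurements, and no link between them was tested.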

How the data were processed

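The 28 arrays comprised 11 PT, 9 LungMets, 3 NMG, 3 NL and 2 cell line samples. The deposited values were log2 signals of 45101 probe sets, which the authors had normalized by RMA (Partek 6.6 per the submitters' processing notes). A depth does not apply to arrays, and their number limited the precision. Of the probe sets 34958 had 1 gene symbol, 932 several and 9211 none listed, and 13 controls were left out. Each gene was represented by its brightest probe set on average across the 26 tissue arrays. limma 3.58.1 in R 4.3.3 fitted 1 mean per group over the tissue arrays (two-sided, Benjamini-Hochberg over 18193 genes, called under 0.05). Correlations used permutation tests. Shifts added to simulated data were recovered by the same script, in 24 of 50 genes for a rise of 0.5 and 43 of 50 for a rise of 1 in PT against NMG. The Hox genes, the lists and the tests were chosen with earlier results of these data known. Every Hox gene was named, with values by array for the 12 of largest called difference, and up to 4 called genes per comparison from the lists of TALE cofactors, ParaHox genes, Polycomb, Trithorax, retinoic acid and regional factors. Cell markers covered lung epithelium, lung mesenchyme, adipocytes, fibroblasts, endothelium, B lymphocytes and luminal and basal mammary epithelium. Alternatives changed the probe set, scaling, filter, weights, block, test and arrays. The sequences were read from RefSeq tables, figures drawn with matplotlib 3.10.9.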

Additional observations from a re-analysis of the deposited data

Results flagged for a closer look

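Among the 33 Hox genes in the 9 LungMets arrays, 8 values lay far from the others of their gene, several of them on the same array. The rule flags about 1 in 20 groups of independent, normally distributed values. The share of all genes flagged by it is not given, so the count cannot be read as particular to the Hox genes. LungMets replicate 9 was low for Hoxa5 (6.87, others 7.66 to 8.23) and high for Hoxc6 (5.77, others 4.69 to 5.23), Hoxc8 (5.20, others 2.49 to 3.65) and Hoxc13 (5.20, others 4.11 to 4.57). This is the array with the lung epithelial mean of 6.99. LungMets replicate 5 was high for Hoxa10 (5.03, others 3.58 to 4.28) and Hoxa11 (4.35, others 3.91 to 4.08). Hoxb3 was low in LungMets replicate 3 (5.15, others 5.30 to 5.44), and Hoxb4 was high in LungMets replicate 8 (6.13, others 5.26 to 5.68).

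For 12 of the 33 Hox genes the difference between tumor and normal tissue varied between gland and lung. This was limma's test of (PT minus NMG) minus (LungMets minus NL), which 19.8% of all genes passed. That contrast was 3.13 for Hoxa5 (adjusted p = 6.49e-06), where the parts were 1.63 and -1.49. Hoxc8 gave -4.57 (adjusted p = 4.78e-05), with -3.93 in the gland and 0.64 in the lung, and Hoxc10 gave -2.28 (adjusted p = 5.26e-06), with -1.67 and 0.61. Hoxb5 gave 1.84 (adjusted p = 4.53e-05), with -0.30 and -2.15. The others were Hoxd10 at -1.15 (5.44e-07), Hoxd9 at -1.39 (0.000104), Hoxa4 at 1.02 (7.54e-05), Hoxa2 at 1.08 (0.00124), Hoxc9 at -0.88 (0.00348), Hoxa10 at -1.27 (0.00721), Hoxa9 at -0.78 (0.00971) and Hoxc4 at -0.87 (0.0391), with limma's adjusted p in parentheses. The last was 0.0508 without PT replicate 5 and LungMets replicate 9. All 12 also passed in NL against NMG, which uses the same normal arrays.

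Both cell line arrays, which entered no test, lay over the highest array median (5.185) and over every normal tissue array for 3 Hox genes. The share of all genes for which they did so is not given, so this count cannot be read as particular to the Hox genes. Several Hox genes of lower signal, among them Hoxa11 and Hoxa13, also lay over every normal tissue array on both. Hoxd13 had 8.97 and 9.28 (highest normal array 4.10), Hoxa7 had 7.92 and 8.04 (highest normal array 6.69), and Hoxb9 had 5.37 and 5.82 (highest normal array 5.15). The highest PT values were 8.34, 7.34 and 5.33.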

How the results depend on the processing

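No called Hox difference changed sign under any alternative run. Of the calls, 11 of 16 in NL against NMG, 7 of 17 in PT against NMG, 5 of 13 in LungMets against NL, 6 of 14 in LungMets against NMG and 0 of 3 in LungMets against PT were kept under every alternative other than the filter on low values. A filter on genes above the median mean left only Hoxa5 and Hoxa7 and gave 2 calls in PT against NMG, 0 in LungMets against PT, 1 in each other comparison and 1 for the difference between sites, because fewer genes were tested. Requiring a fold change above 2 gave 8 in PT against NMG (3137 of the 18193 genes) and 1 in LungMets against PT (564). It gave 6 in LungMets against NL (2961) and 6 in LungMets against NMG (2422). LungMets against PT also moved from 3 (2758 of the 18193 genes) to 6 with centred arrays (3084) and 6 with quantile normalization (3024). It was 12 with array weights (4156), 10 without PT replicate 5 and LungMets replicate 9 (3670) and 0 on date batch 2 alone (0). The cause was not tested. Leaving out single arrays gave 11 to 18 calls in PT against NMG (6762 to 8783 of the 18193 genes) and 3 to 7 in LungMets against PT (2624 to 3206). The counts were 10 to 14 in LungMets against NL (6754 to 8480) and 12 to 15 in LungMets against NMG (5352 to 7599). They were 13 to 16 in NL against NMG (4166 to 5334) and 11 to 12 for the difference between sites (2826 to 3629). Leaving out PT replicate 5 alone, LungMets replicate 9 alone, and testing each probe set by itself were added after the data were seen. Replicate numbers were checked as pairs between PT and LungMets only. Of 9 pairs 7 correlated over 0.1, the level set as pairing, but 0 correlated best with their own number. Whether the numbers mark pairs was thus not settled. With the replicate block the counts were 14 for PT and 16 for NL against NMG (8572 and 6257 of the 18193 genes). For LungMets they were 16 against NMG (7955), 5 against PT (2816) and 12 against NL (8973). The difference between sites gave 14 (4479). The block ended the calls of Hoxa9, Hoxa11, Hoxd3 and Hoxd12 in PT against NMG, and of Hoxa9 and Hoxc10 in LungMets against NL. With the highest Y-linked signal as the level, 21, 22, 25 and 21 Hox genes lay over it in PT, LungMets, NMG and NL. Most Hox signals were near background, which limits what a missing call can show.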
